A study of Mus musculus with 9 samples.

Results

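LSK cells labelled circulating were compared with LSK cells labelled endogenous, across the 13771 genes that passed the filter on low values. LSK cells carry no lineage marker, express Sca-1, the product of Ly6a, and c-Kit, the product of Kit, and hold the blood stem cells and the earliest multipotent progenitors. The members of the comparison were taken from the sample labels alone: 3 circulating and 3 endogenous libraries, 6 of the 9 libraries of the series. The other 3 libraries, labelled irradiated, entered the filter on low values and the estimate of spread, and no value of theirs enters a fold change. All cells came from marrow of parabiotic mice, pairs joined by surgery that share a circulation, and the series describes the circulating cells as having travelled to the marrow of an irradiated partner. The strain label was C57BL/6 for the circulating and the irradiated libraries and B6SJL CD45.1 for the endogenous libraries, so strain and group cannot be told apart. Titles of circulating and irradiated libraries with the same replicate number share a DD code, and endogenous titles carry an SJ code. The labels do not explain these codes. Whether a strain label names the sorted cells or the mouse that supplied the marrow was not tested. The labels give no radiation dose, no age, no time of joining, and nothing on which partner supplied the endogenous cells. Every mouse is described as free of specific pathogens. Whether each library stands for its own animal is not stated, so p-values reflect only the spread among these 9 samples, and that spread may be technical.

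Blood stem cells are mostly quiescent, and they leave and re-enter the marrow through the blood in small numbers. Within the LSK gate, long-term stem cells express genes such as Procr and Hlf, while progenitors that start on the granulocyte and monocyte path switch on the proteases stored in primary granules. Entry into division brings a wave of genes for DNA replication, followed by a later wave for the mitotic spindle, and the step from a resting to a dividing progenitor is accompanied by a larger mitochondrial and protein-making capacity.

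RNA was read with a low-input full-length method whose library chemistry does not mark strand, so reads of genes that overlap on opposite strands were not separated. The deposited values are a normalised signal in proportion to read number and not to gene length, so levels are compared between libraries for 1 gene at a time and never between genes. Estimated counts recovered for the 6 libraries lay between 14065855 and 23642590, and circulating replicate 2 had the fewest. A count of 0 has a deposited value between 0.0193 and 0.0376 in these libraries. The circulating libraries stood further apart from one another than the endogenous ones: the median SD of a gene was 0.38 among circulating and 0.26 among endogenous libraries on the log2 scale. On the first principal component of the 6 libraries (43.2% of the variance) the endogenous libraries lay between -40.04 and -34.97, circulating replicate 1 at -2.94, replicate 3 at 44.72 and replicate 2 at 70.0. The second component (23.7%) separated circulating replicate 2 at 48.65 from replicate 3 at -57.61.

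The gate genes were present in every library. Ly6a had values of 138, 146 and 127 in circulating replicates 1, 2 and 3 and of 177, 194 and 169 in the endogenous replicates (log2 fold change -0.39 ± 0.13 SE, limma adjusted p = 0.092). Kit, the receptor for stem cell factor and the other positive marker of the gate, was lower in all 3 circulating libraries: 328, 401 and 410 against 887, 1011 and 737, a log2 fold change of -1.20 ± 0.13 (limma adjusted p = 0.0026). Ptprc, the gene of CD45, whose allelic forms distinguish the labelled strains, had 651, 646 and 450.1 against 605, 607 and 557, and the groups overlapped (-0.04 ± 0.14, limma adjusted p = 0.90). Flt3, a cytokine receptor that increases from stem cells to multipotent progenitors, had 766, 377 and 342 against 642, 807 and 870 and was not called. Cd34, a surface sialomucin of progenitors, had 1384, 1024 and 735 against 1570, 1588 and 1512 (-0.62 ± 0.18, limma adjusted p = 0.054). Throughout, 3 values in a row are replicates 1, 2 and 3, and log2 fold changes are circulating minus endogenous of log2(value + 1), a scale on which the change of weakly detected genes is compressed.

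With limma, 1189 of the 13771 tested genes (8.63%) were called at a Benjamini-Hochberg adjusted p under 0.05. Of these, 734 were higher in circulating cells (5.33% of tested genes) and 455 were lower (3.3%). Over all tested genes the median log2 fold change was -0.04. The balance of higher and lower calls followed the scaling: 61.7% of calls were higher with the deposited scaling, 48.6% with upper-quartile scaling (520 higher, 551 lower) and 29.2% with scaling by library size alone (336 higher, 816 lower), which moved the median of all genes to -0.22. A fit with sample weights, which let libraries differ in their spread, called 494 genes (340 higher, 154 lower). In simulated data with groups of unlike spread, 10.2% of calls were false without sample weights and 4.54% with them. The number of calls also followed single libraries, from 257 without endogenous replicate 1 to 2224 without circulating replicate 1. It was 622 to 698 without 1 irradiated library. A fit of the 6 libraries alone called 239 genes (159 higher, 80 lower), so most of the 1189 calls were not made without the irradiated libraries. For this reason the genes described with a test are mainly those that were called in all 12 fits, meaning the fit above, a fit with sample weights, a fit of the 6 libraries alone and 9 fits that each left out a library. These were 181 genes (1.31% of tested genes), 132 higher and 49 lower. Of them, 172 were also called under each of the other 9 settings of scaling, filter, pseudocount, method and moderation. The shares of all tested genes, 5.33% higher, 3.3% lower and 1.31% in all 12 fits, are the background for every list count below.

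**Figure D1:**
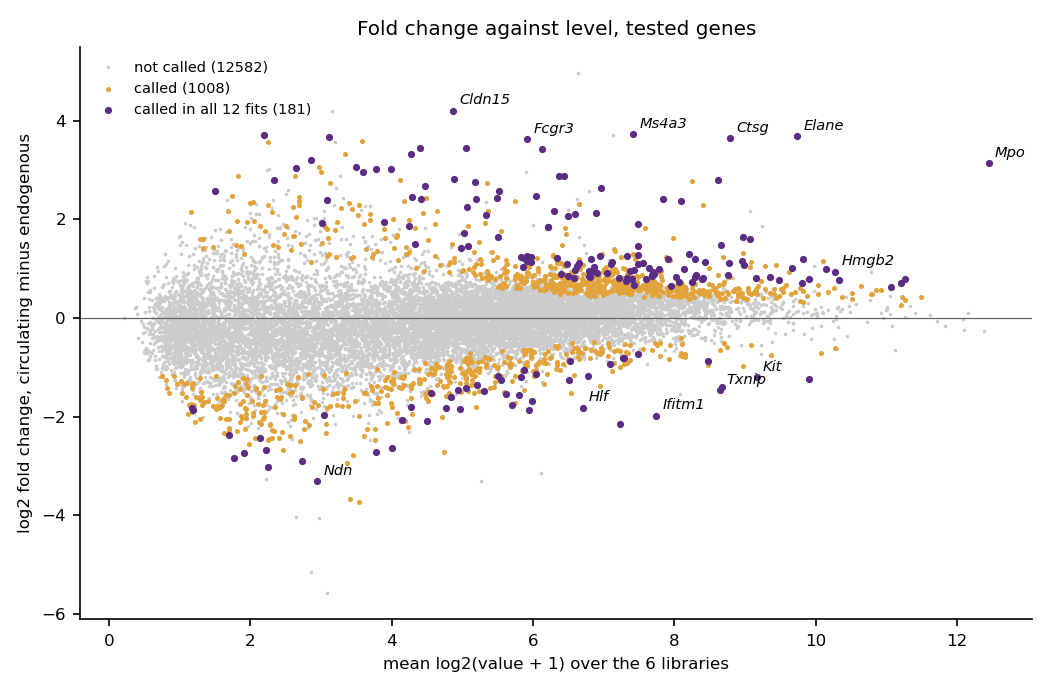
Each point is 1 of the 13771 tested genes, with its mean log2(value + 1) over the 6 libraries on the x axis and its log2 fold change (circulating minus endogenous) on the y axis. Grey points were not called, orange points were called and the 181 purple points were called in all 12 fits. The granule genes Mpo, Elane and Ctsg and the progenitor marker Ms4a3 combine a high level with a fold change above 3.

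Among genes called in all 12 fits, without overlap between the groups and with a mean log2 value of at least 2, the 14 largest rises were Cldn15, Ms4a3, Fcmr, Elane, Dmkn, Ctsg, Fcgr3, Trem3, Prom1, Igsf6, Clec5a, Dgat2, Mpo and Cd36, with log2 fold changes from 4.20 down to 3.06. Cldn15, a tight-junction claudin, had values of 62.4, 150 and 205 in circulating and 7.84, 5.84 and 4.22 in endogenous libraries (4.20 ± 0.41, limma adjusted p = 0.0011). Elane, the gene of neutrophil elastase, had 1538, 3664 and 5100 against 340, 195 and 204 (3.68 ± 0.43, limma adjusted p = 0.0047). Mpo, the gene of myeloperoxidase, had 9410 in circulating replicate 1, 17263 in replicate 2 and 28138 in replicate 3, against 2334, 1648 and 1734 (3.14 ± 0.41, limma adjusted p = 0.0079). In each of these genes the lowest circulating library was still above the highest endogenous one, and circulating replicate 1 was the lowest of its group.

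Fcgr3, Trem3, Igsf6 and Clec5a encode receptors of the immunoglobulin and lectin families found on myeloid cells. For Fcgr3, an activating receptor for IgG, the values were 105, 256 and 352 against 25.1, 14.8 and 11.4 (3.62 ± 0.43, limma adjusted p = 0.0026). Trem3 had 55.3, 115 and 202 against 12.5, 7.61 and 7.72 (3.45 ± 0.40, limma adjusted p = 0.0026). Dgat2, which makes triglyceride, and Cd36, a fatty acid transporter, handle lipid: Dgat2 had 13.4, 21.97 and 31.0 against 2.16, 0.640 and 1.60 (3.20 ± 0.50, limma adjusted p = 0.0075), and Cd36 had 23.7, 66.1 and 19.5 against 3.09, 3.86 and 1.95 (3.06 ± 0.44, limma adjusted p = 0.0058). Prom1, a surface glycoprotein also known as CD133, had 25.3, 116 and 108 against 8.84, 4.95 and 3.54 (3.43 ± 0.54, limma adjusted p = 0.0079); it overlaps Gm16401 on the other strand. Fcmr, the Fc receptor for IgM, had 5.36, 38.3 and 17.0 against 0.0584, 0.0220 and 0.832, so 2 endogenous libraries were at or near a count of 0. The calls of Fcmr and Dmkn were not made with voom on estimated counts.

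Among the 14 largest falls by the same rule were Ndn, Pdgfd, Npdc1, Tle2, Bgn, Gucy1a1, Slc16a9, Max, Plxdc2, Ifitm1, Mageh1, Serpinf1 and Arrdc4, with log2 fold changes from -3.31 to -1.84. Ndn encodes necdin, an imprinted growth suppressor of the MAGE family; it had values of 3.05, 0.113 and 2.24 in circulating and 26.8, 25.8 and 18.1 in endogenous libraries (-3.31 ± 0.47, limma adjusted p = 0.0056). Circulating replicate 2 was below the level of 3 counts for this gene. Mageh1, another gene of the MAGE family, had 3.59, 3.34 and 2.58 against 18.2, 15.2 and 12.8 (-1.97 ± 0.31, limma adjusted p = 0.0079).

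Gucy1a1, a subunit of the nitric oxide receptor, had 5.81, 8.07 and 3.26 against 41.1, 46.2 and 31.2 (-2.64 ± 0.41, limma adjusted p = 0.0075). Max, the obligate partner of Myc in DNA binding, had 9.53, 11.1 and 9.32 against 72.1, 55.1 and 23.2 (-2.08 ± 0.36, limma adjusted p = 0.010). Myc itself had 467, 379 and 363 against 432, 363 and 413 and was not called (0.00 ± 0.12, limma adjusted p = 0.99). Arrdc4 and Txnip are arrestin-domain relatives that restrain glucose uptake, the second of them outside the ranking: Arrdc4 had 17.5, 11.2 and 19 against 48.6, 64.5 and 62.0 (-1.84 ± 0.26, limma adjusted p = 0.0058) and Txnip 224, 288 and 219 against 540, 903 and 607 (-1.46 ± 0.25, limma adjusted p = 0.0094). Txnip overlaps Gm15441 on the other strand. Bgn, which encodes the matrix proteoglycan biglycan, had 0.0226, 0.563 and 3.03 against 10.95, 9.84 and 11.6, and circulating replicate 1 was at a count of 0 (-2.66 ± 0.47, limma adjusted p = 0.011). The calls of Pdgfd and Slc16a9 were not made with voom on estimated counts.

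**Figure D2:**
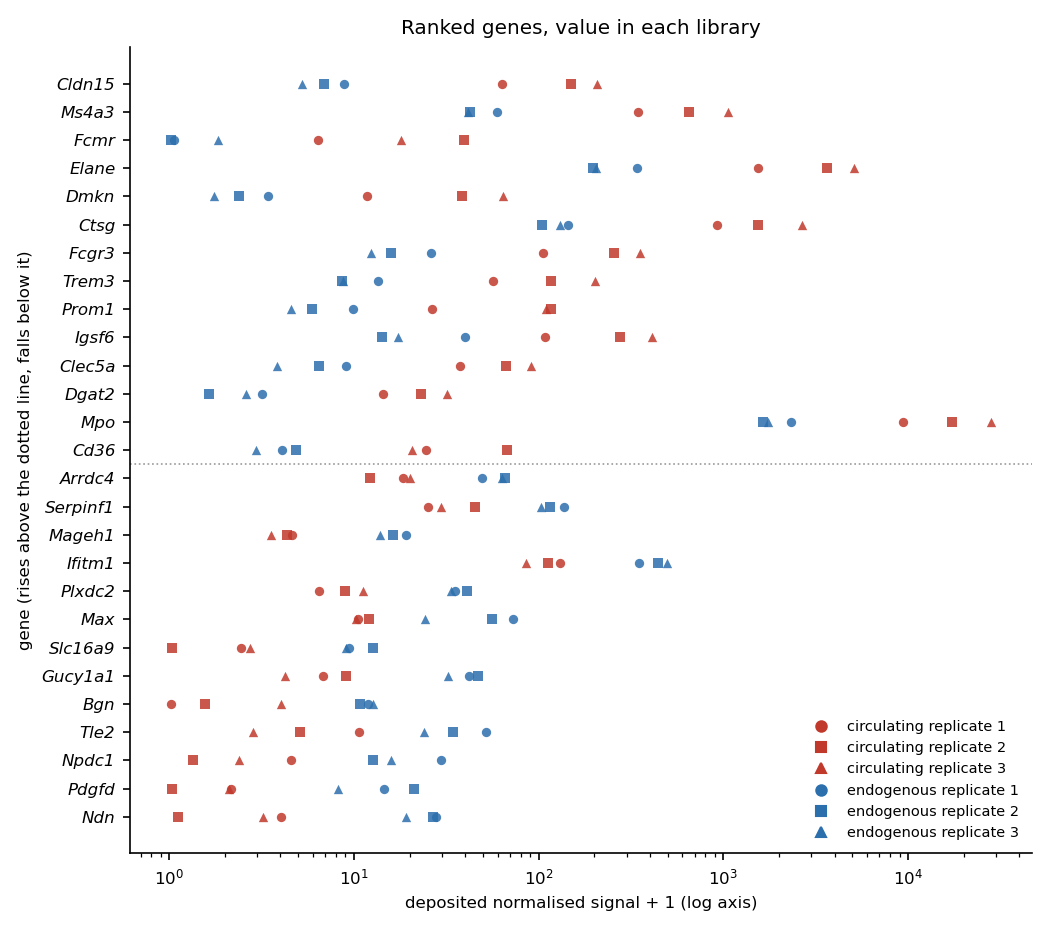
The x axis gives the deposited normalised signal plus 1 on a log axis, and each row is a ranked gene named in the text with 1 point per library (red circulating, blue endogenous; circle, square and triangle for replicates 1, 2 and 3). The red and blue points do not overlap in any row, which the ranking required, and circulating replicate 1 is the lowest red point in 13 of the 14 rises.

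The granule, mitotic and interferon gene lists are shown with promoter sequence, because many of their members were called in 1 direction and short sequences are widely used to describe the promoters of such genes: the CHR element and the CCAAT box for genes of mitosis, the ISRE for genes induced by interferon and the PU.1 core for myeloid genes. Promoters were the 300 bases from 250 before to 50 after the RefSeq start (GRCm38.p6), searched on both strands. The CHR letters TTTGAA were found in 25 of 33 promoters of spindle and kinetochore genes (75.8%) and in 17.9% of all 32851 promoters, and CCAAT in 24 of 33 (72.7%) and 37.4%. The ISRE core, a pair of GAAA blocks with any 2 bases between them, was found in 15 of 33 promoters of interferon genes (45.5%) and 3.44% of all promoters. For the PU.1 core GAGGAA the shares were 8 of 13 promoters of the granule list (61.5%) and 28.3%. RefSeq promoters were matched for 30 of 35, 27 of 38 and 12 of 15 tested genes of these lists. The called members printed here are those for which the 120 bases before the transcript start, and before any annotated exon, held every motif searched for that list. Most called members with such a stretch did not and are not printed. Among them, Ctsg, Ms4a3, Birc5, Nuf2, Mad2l1, Ifi44 and Oasl2 held no match. Capitals mark the matches on either strand, and in Isg15 3 matches overlap. Kif11 is at chr19:37376262-37376381 on the plus strand, Ifit1 at chr19:34640751-34640870 plus, Rsad2 at chr12:26456453-26456572 minus, Isg15 at chr4:156200819-156200938 minus, Prtn3 at chr10:79879494-79879613 plus and Elane at chr10:79886127-79886246 plus.
Kif11: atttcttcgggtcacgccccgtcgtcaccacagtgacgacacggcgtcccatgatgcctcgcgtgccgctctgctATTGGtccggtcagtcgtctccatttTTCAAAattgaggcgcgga
Ifit1: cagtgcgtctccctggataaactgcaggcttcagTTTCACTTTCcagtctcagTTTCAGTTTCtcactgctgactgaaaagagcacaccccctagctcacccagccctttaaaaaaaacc
Rsad2: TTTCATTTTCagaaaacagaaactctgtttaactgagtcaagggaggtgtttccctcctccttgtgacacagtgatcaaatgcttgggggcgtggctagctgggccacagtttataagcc
Isg15: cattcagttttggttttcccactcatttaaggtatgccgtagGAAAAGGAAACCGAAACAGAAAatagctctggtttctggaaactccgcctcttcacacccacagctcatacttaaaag
Prtn3: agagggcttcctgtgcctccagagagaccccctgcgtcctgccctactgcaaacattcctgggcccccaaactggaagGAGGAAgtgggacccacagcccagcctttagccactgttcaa
Elane: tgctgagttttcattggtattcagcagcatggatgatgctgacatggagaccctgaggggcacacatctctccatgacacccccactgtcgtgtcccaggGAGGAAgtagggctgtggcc
A match describes these letters and is not evidence of a bound factor.

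The list named for primary granule proteins, the proteases and oxidative enzymes that promyelocytes package, was higher in most of its members. It also held genes that encode neither, among them Ms4a3, the receptor gene Igsf6 and the lectin gene Clec12a. Of 15 tested members, 13 were called higher, against 5.33% of all tested genes, none was called lower and 12 were called in all 12 fits; the median log2 fold change was 2.38. The fits that left out a library called 12 or 13 members higher, and the fit without endogenous replicate 3 also called 1 lower. Ctsg, the gene of cathepsin G, had 918, 1546 and 2667 against 143, 103 and 129 (3.64 ± 0.32, limma adjusted p = 0.0011), and Ms4a3, a marker of committed granulocyte and monocyte progenitors, had 346, 653 and 1065 against 58.5, 41.7 and 40.4 (3.72 ± 0.36, limma adjusted p = 0.0011). Prtn3, the gene of proteinase 3, had 584, 1054 and 1787 against 166, 122 and 159 (2.80 ± 0.33, limma adjusted p = 0.0026) and overlaps Plppr3 on the other strand. Cst7, an inhibitor of granule cathepsins, had 151, 282 and 347 against 62.6, 46.2 and 60.0 (2.12 ± 0.26, limma adjusted p = 0.0026), and the inhibitory lectin Clec12a had 379, 649 and 969 against 123, 92.6 and 146 (2.38 ± 0.29, limma adjusted p = 0.0027). In all 5 genes the groups did not overlap. The uncalled members were Ctsc, the activator of granule proteases, with 177, 242 and 259 against 193, 196 and 137, and Lyz2, the gene of lysozyme, with 572, 581 and 537 against 931, 888 and 606. Lyz2 was the member with a negative fold change (-0.49 ± 0.16, limma adjusted p = 0.076), and all its circulating values were below the endogenous ones.

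Among regulators and receptors of the myeloid path, 2 receptors were called. Of all tested genes, 5.33% were called higher and 1.31% in all 12 fits. None of 11 tested myeloid transcription factors was called in either direction, which a list this short can show at those shares. Their median was 0.56, and 4 were called higher without circulating replicate 1. Spi1, which encodes PU.1, had 118, 139 and 146 against 110, 70.8 and 93.9, without overlap (0.56 ± 0.17, limma adjusted p = 0.068). Irf8, a factor of monocytes and dendritic cells, had 82.7, 301 and 194 against 61.0, 50.05 and 99.0 (1.32 ± 0.39, limma adjusted p = 0.061). Of 14 myeloid receptors, Fcgr3 and Fcgr2b were called higher, both in all 12 fits, and 4 were called higher without circulating replicate 1. Without circulating replicate 1 or 2, 1 was called lower. The median was 0.06 and turned to -0.14 with scaling by library size alone. Fcgr2b, the inhibitory receptor for IgG, had 44.1, 46.3 and 94.4 against 13.8, 19.6 and 17.7 (1.72 ± 0.29, limma adjusted p = 0.0089) and overlaps Gm38204 on the other strand. Csf3r, the receptor for granulocyte colony-stimulating factor, had 196, 158 and 223 against 162, 170 and 159 and was not called.

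Genes that define stem cells within the gate were lower where they were called. Of 19 stem cell transcription factors, 6 were called lower (3.3% of all tested genes were) and none higher, with a median of -0.56 and 17 negative fold changes. Hlf, a factor of long-term stem cells, was the member called in all 12 fits: 77.6, 50.9 and 41.0 against 209, 186 and 190 (-1.82 ± 0.21, limma adjusted p = 0.0026). Prdm16, needed for stem cell maintenance, had 9.02, 6.05 and 4.95 against 25.5, 21.4 and 24.1, and Meis1, a partner of Hox proteins, had 250, 239 and 152 against 377, 352 and 349; for both the groups did not overlap, and their calls were lost in 1 and 4 of the 11 further fits. The count of lower factors ranged from 1 without endogenous replicate 1 to 8 without circulating replicate 1, and it was 2 without endogenous replicate 2 or 3. With sample weights it was 4. Etv6, a factor that stem cells need in adult marrow, had 177, 156 and 169 against 218, 229 and 213 and was not called (-0.40 ± 0.12, limma adjusted p = 0.057).

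On the cell surface, 5 of 21 tested stem cell and niche receptors were called lower and 1 higher, with a median of -0.52. Among those called lower, Kit, Adgrg1 and Procr were called in all 12 fits. Adgrg1, an adhesion receptor enriched in stem cells, had 646, 711 and 524 against 1613, 1532 and 1282 (-1.24 ± 0.13, limma adjusted p = 0.0014). Procr, a receptor for protein C used to isolate long-term stem cells, had 30.1, 19.4 and 19.7 against 73.8, 73.7 and 50.1 (-1.48 ± 0.24, limma adjusted p = 0.0083). The member called higher was Cd48, a surface protein that long-term stem cells lack and progenitors carry, with 470, 548 and 392.2 against 227, 325 and 333 (0.68 ± 0.17, limma adjusted p = 0.032). Its call ended without circulating replicate 2 and in 7 other fits of the 11. Between 4 and 6 members were called lower when a library was left out.

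Of 13 tested genes of quiescence and imprinting, 4 were called lower and none higher, and the median was -0.49. Ndn and Txnip were called in all 12 fits, and without circulating replicate 3, endogenous replicate 1 or 2 or any irradiated library they were the 2 members called. Meg3, an imprinted long RNA, had 0.926, 0.160 and 0.0906 against 4.62, 3.65 and 1.57, and Grb10, an imprinted adaptor of growth factor receptors, had 1.74, 7.999 and 5.75 against 14.4, 17.6 and 12.8. Both calls were made in only 2 of the 11 further fits, and 2 circulating libraries were at or under 3 counts for Meg3. The 8 tested Hox genes all had negative fold changes and a median of -0.40, but none was called, and 3 were called lower without circulating replicate 1. Hoxa9, the member with the highest mean level, had 154, 95.8 and 73.5 against 151, 112 and 142. Of 18 genes of TGF-beta and BMP signalling, Eng alone was called, lower, with 15.8, 22.5 and 14.7 against 54.6, 30.1 and 36.8 (-1.13 ± 0.26, limma adjusted p = 0.026); no member was called lower without circulating replicate 3, endogenous replicate 1 or endogenous replicate 3, and 3 were without circulating replicate 2.

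The mature and lineage-restricted cell types that a gate could hold differed less evenly between libraries. Summed over 12 monocyte and macrophage genes, the signal was 669, 1643 and 2338 in circulating and 424, 262 and 295 in endogenous libraries. Of these 12 genes, 2 were called higher and 1 lower, and 1 was at or under 3 counts in circulating replicate 3 and none in the other 5 libraries. Fold changes were positive for 7, and the median was 0.53. Relative to the endogenous mean, the median was -0.09 in circulating replicate 1, 0.51 in replicate 2 and 0.84 in replicate 3. Ccr2, the receptor that brings monocytes into blood and tissue, had 93.2, 344 and 117 against 32.96, 22.5 and 26.6 (2.48 ± 0.39, limma adjusted p = 0.0079) and was called in all 12 fits. Ly6c2, a surface marker of classical monocytes that progenitors also express, had 379, 939 and 1443 against 172, 92.8 and 96.4, and Axl, a receptor of macrophages, had 8.03, 6.42 and 0.0849 against 34.4, 25.3 and 24.4; the calls of both were lost in 4 of the 11 further fits. Cd68, a macrophage lysosomal protein, had 28.0, 52.0 and 41.3 against 30.9, 30.2 and 32.9 and was not called. Most of each circulating sum came from Ly6c2. These sums moved with the granule genes, and their part in that result was not tested. In bulk RNA, fewer cells of a type and less RNA per cell cannot be told apart.

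Of 13 mature neutrophil genes, 2 were called lower and none higher, and the median was -0.72. Mmp8, a collagenase of neutrophil granules, had 19.6, 12.3 and 3.14 against 91.1, 72.5 and 47.4 (-2.72 ± 0.51, limma adjusted p = 0.013), a call lost in 2 of the 11 further fits. Retnlg, made by mature neutrophils, had 26.1, 0.113 and 0.0849 against 59.6, 47.0 and 25.5, so 2 circulating libraries were at or under 3 counts. S100a8, an abundant protein of neutrophils and monocytes, had 424, 1012 and 420 against 519, 365 and 277, and S100a9, its partner, 377, 591 and 193 against 503, 344 and 246. The groups overlapped for both, and neither was called. No mature neutrophil gene was called lower without endogenous replicate 1 or 2, and 1 to 3 were in the other fits that left out a library.

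Mast cell and basophil genes separated the circulating libraries from one another. Their 11 tested members had a median, relative to the endogenous mean, of -0.73 in circulating replicate 1, 2.31 in replicate 2 and 2.80 in replicate 3. Hdc, which makes histamine, was called higher in all 12 fits, with 47.8, 96.8 and 175 against 15.6, 11.4 and 12.2 (2.75 ± 0.46, limma adjusted p = 0.0084). Cpa3, a mast cell protease also present in early progenitors, had 49.6, 282 and 395 against 56.1, 64.7 and 47.9 and was not called. Without circulating replicate 1, 8 of the 11 were called higher. In every other fit that left out a library, 1 was called higher. Without circulating replicate 2, 2 were called lower. Summed signal was 228, 1014 and 1248 in circulating and 345, 325 and 270 in endogenous libraries.

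Of 21 erythroid genes, 3 were called higher, none in all 12 fits. Fold changes were positive for 13, and the median was 1.07. Summed signal was 1668, 2092 and 3180 in circulating and 2116, 2541 and 1761 in endogenous libraries, with overlap between the groups. Kel, which encodes a red cell antigen, had 5.29, 23.1 and 27.5 against 0.214, 0.992 and 0.0967. Gata1, the master factor of the erythroid and megakaryocyte paths, had 19.1, 58.7 and 85.4 against 15.7, 10.3 and 9.59 (1.90 ± 0.50, limma adjusted p = 0.041), and Klf1, an erythroid factor, 14.8, 15.3 and 74.7 against 6.01, 3.59 and 6.43 (2.11 ± 0.57, limma adjusted p = 0.044). The count of higher members was 0 without circulating replicate 3 and without each endogenous library in turn, and 1 without an irradiated library. Without circulating replicate 1, 10 were called higher and 2 lower. Among 13 megakaryocyte genes, 2 were called lower and none higher, and 2 were called higher without circulating replicate 1. Plek, the gene of pleckstrin, a protein kinase C substrate of platelets, had 219, 240 and 189 against 388, 398 and 333 (-0.79 ± 0.15, limma adjusted p = 0.014), a call lost without endogenous replicate 1 or 2; it overlaps Cnrip1 on the other strand.

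The lymphoid and dendritic genes that were called had their highest value in circulating replicate 2. Cd79a, a signalling chain of the B cell receptor, had 19.1, 65.8 and 49.7 against 13.2, 4.21 and 5.71, a call lost in 6 of the 11 further fits. The 19 tested genes of the B lineage had a median of 0.01, which became -0.19 with scaling by library size alone, and Dntt, which early lymphoid progenitors use to diversify receptor genes, had 1484, 545 and 671 against 801, 906 and 1442. The B lineage genes called higher numbered 2, and 7 without circulating replicate 1. No T cell gene of 9 was called, but 3 were called higher without circulating replicate 1 and 1 lower without circulating replicate 2: Cd3g, a chain of the T cell receptor complex, had 1.11, 31.0 and 5.29 against 1.92, 1.08 and 2.59. The summed signal of T cell genes was 251 in circulating replicate 2 and between 78.6 and 135 in the other 5 libraries, and that of the 3 NK cell genes was 90.1 and between 9.10 and 19.5. Of 10 T cell genes, none was at or under 3 counts in circulating replicate 2, and 0 or 1 was in each of the other 5 libraries. Xcr1, a chemokine receptor of cross-presenting dendritic cells, had 24.1, 118 and 30.8 against 5.08, 3.82 and 8.68 (2.79 ± 0.54, limma adjusted p = 0.014), a call lost in 2 of the 11 further fits. Of 12 dendritic cell genes, Xcr1 and Clec9a were called higher, and neither was without endogenous replicate 1 or 2; 4 were called lower without circulating replicate 1.

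Genes of MHC class II presentation were also most abundant in circulating replicate 2 as a list. Of 11 tested, 4 were called higher, none in all 12 fits, and the median was 1.11; relative to the endogenous mean it was 0.38 in circulating replicate 1, 2.11 in replicate 2 and 0.83 in replicate 3. H2-Ab1, a class II beta chain, had 407, 1754 and 584 against 202, 136 and 126 (2.30 ± 0.47, limma adjusted p = 0.023). Ciita, the co-activator that switches class II genes on, had 10.2, 22.3 and 22.4 against 4.03, 1.83 and 6.67 (1.94 ± 0.47, limma adjusted p = 0.031). Cd74, the invariant chain, had 562, 2869 and 943 against 434, 294 and 251 and was not called (1.85 ± 0.57, limma adjusted p = 0.084). No class II gene was called higher without circulating replicate 3 or endogenous replicate 1 or 2. By contrast, B2m, the light chain of class I, had 3287, 3894 and 2804 against 3399, 3868 and 3138, and 1 of 17 class I genes, Psmb9, was called, in 2 of the 11 further fits.

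**Figure D3:**
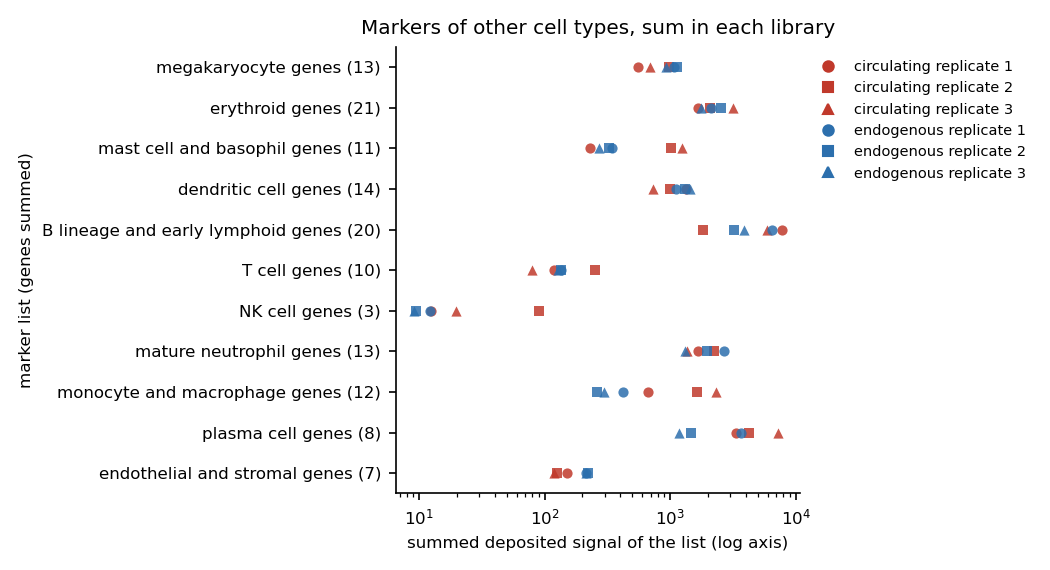
Each row is a list of marker genes of another cell type, with the number of genes summed in brackets, and the x axis gives the summed deposited signal on a log axis with 1 point per library (red circulating, blue endogenous). Circulating replicate 2 stands apart for T cell genes (251) and NK cell genes (90.1), and circulating replicates 2 and 3 for mast cell and monocyte genes.

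Most genes of the mitotic spindle and the kinetochore were called higher in circulating cells. All 35 tested members had positive fold changes, with a median of 0.86, 26 were called higher against 5.33% of all tested genes, none was called lower, and 12 were called in all 12 fits. Tacc3, which stabilises spindle microtubules, had 330.1, 344 and 418 against 172, 148 and 152 (1.20 ± 0.13, limma adjusted p = 0.0022). Birc5 and Cdca8 encode survivin and borealin, subunits of the chromosomal passenger complex: Birc5 had 169, 182 and 222 against 79.1, 71.6 and 87.2 (1.25 ± 0.14, limma adjusted p = 0.0026), and Cdca8 had 229, 222 and 298 against 94.3, 106 and 109 (1.25 ± 0.15, limma adjusted p = 0.0026). In these genes every circulating library was above every endogenous one. Nuf2, a kinetochore subunit that binds microtubules, had 154, 177 and 182 against 79.5, 76.2 and 65.5 (1.20 ± 0.15, limma adjusted p = 0.0027), and Mad2l1, which delays anaphase until chromosomes attach, had 266, 297 and 293 against 162, 159 and 138 (0.90 ± 0.11, limma adjusted p = 0.0031). Kif11, the motor that separates spindle poles and whose promoter is printed above, had 262, 244 and 333 against 170, 146 and 141 (0.86 ± 0.14, limma adjusted p = 0.0083). The groups overlapped for Bub3, a checkpoint protein with 334, 278 and 458 against 281, 286 and 249, and for Ect2, which positions the cleavage furrow, with 159, 76.7 and 234 against 96.2, 118 and 93.6. The count of higher members fell to 12, 13 and 13 without endogenous replicates 1, 2 and 3, was 15 without circulating replicate 3, and reached 30 without circulating replicate 2. With sample weights 19 members were called higher. The list median was 0.66 with scaling by library size alone.

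Fewer genes of the earlier steps of the cell cycle were called. Of all tested genes, 5.33% were called higher and 1.31% in all 12 fits. Of 24 genes for origin licensing and the replicative helicase, 9 were called higher, 3 of them in all 12 fits, all 24 had positive fold changes and the median was 0.48. Cdc45, a component of the active helicase, had 113, 128 and 153 against 62.5, 57.3 and 60.6 (1.10 ± 0.16, limma adjusted p = 0.0061). Gmnn, the gene of geminin, which blocks repeated licensing, had 130.3, 164 and 150 against 81.0, 83.9 and 78.5 (0.85 ± 0.14, limma adjusted p = 0.0080), and Mcm10, which activates origins, had 83.3, 81.9 and 103 against 36.9, 46.9 and 35.6 (1.15 ± 0.19, limma adjusted p = 0.0083). Mcm6, an abundant subunit of the helicase, had 1106, 1132 and 1175 against 1074, 1034 and 1016 and was not called (0.13 ± 0.09, limma adjusted p = 0.37). Licensing genes called higher numbered 3 without endogenous replicate 1, 4 without endogenous replicate 2, endogenous replicate 3 or circulating replicate 3, and 11 at most. With sample weights 4 were called higher.

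Of 29 genes of the replication fork and nucleotide supply, 10 were called higher, against 5.33% of all tested genes. In all 12 fits 3 were called, and the median was 0.46. Rrm1 and Rrm2 encode the large and small subunits of ribonucleotide reductase, which makes the building blocks of DNA. Rrm2 had 355, 503 and 553 against 185, 188 and 187 (1.305 ± 0.16, limma adjusted p = 0.0027), and Rrm1 had 755, 880 and 998 against 494, 552 and 437 (0.82 ± 0.13, limma adjusted p = 0.0079). Pola2, a subunit of the polymerase that lays primers, had 205, 218 and 211 against 129, 100.2 and 136 (0.80 ± 0.14, limma adjusted p = 0.010). The count of higher members was 3 without endogenous replicate 1, 5 without circulating replicate 3 or endogenous replicate 3, 6 without endogenous replicate 2 and 10 at most. With sample weights it was 6.

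Among 32 cyclins, cyclin-dependent kinases and their inhibitors, 6 were called higher and 1 lower, with a median of 0.27. The mitotic kinase and its cyclin were called in all 12 fits: Cdk1 had 237, 268 and 328 against 114, 134 and 135 (1.11 ± 0.16, limma adjusted p = 0.0058), and Ccnb2 had 284, 257 and 314 against 146, 137 and 137 (1.02 ± 0.12, limma adjusted p = 0.0027). The kinases and cyclins of G1 were not called, among them Cdk4 with 724, 751 and 735 against 666, 627 and 683, Cdk6 with 341, 366 and 323 against 251, 230.2 and 379, and Ccnd2 with 415, 519 and 425 against 432, 552 and 547. Of 20 genes of the anaphase promoting complex and exit from mitosis, Cdc20 and Ube2c were called higher. Cdc20, its activator, had 251, 221 and 322 against 129, 122 and 114 (1.10 ± 0.16, limma adjusted p = 0.0058), was called in all 12 fits and overlaps Elovl1 on the other strand. The fits that left out a library called 3 to 10 of the cyclin list higher; it was 3 without circulating replicate 3, irradiated replicates 1 and 3 and endogenous replicates 1 and 2, 4 without irradiated replicate 2, and 10 without circulating replicate 1. For Ube2c, an ubiquitin-conjugating enzyme of this complex, the values were 188, 162 and 388 against 91.2, 79.2 and 96.2, and its call ended without endogenous replicate 1 or 2.

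**Figure D4:**
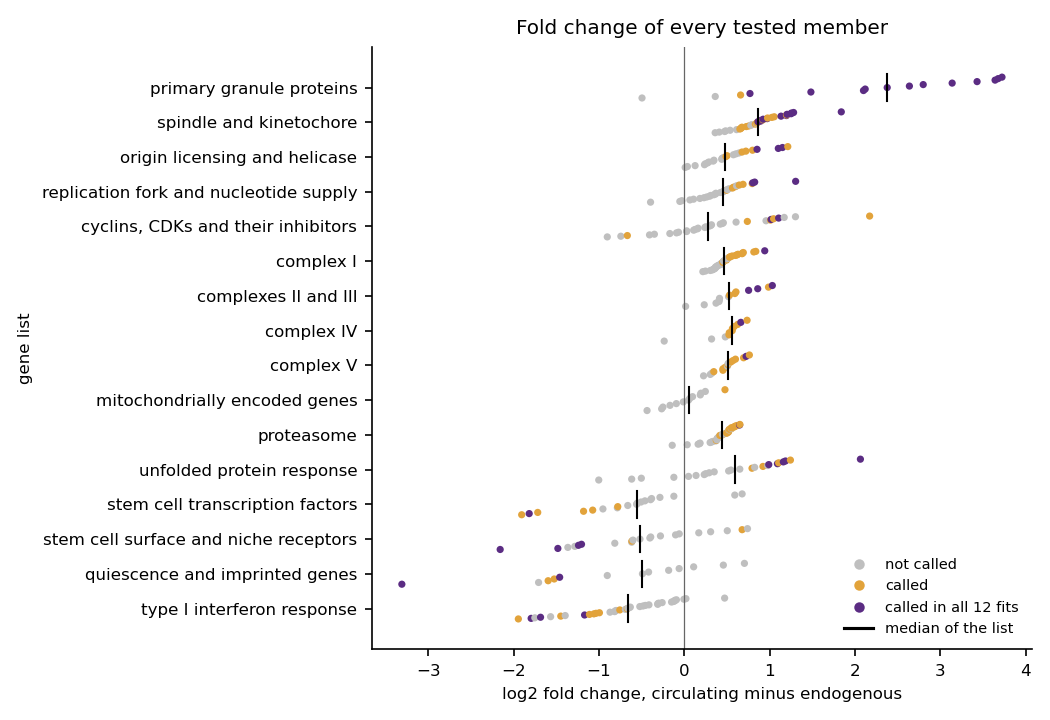
Each point is 1 tested gene of a list, placed by its log2 fold change (circulating minus endogenous) on the x axis, and the black bar is the median of the list. Purple points were called in all 12 fits, orange points in the fit of 9 libraries, and grey points were not called; the spindle and complex I lists lie wholly to the right of 0, and the interferon list mostly to the left.

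Of 78 tested nuclear genes of the respiratory chain and the ATP synthase, 42 were called higher and none lower. The shares of all tested genes were 5.33% and 3.3%, and single libraries moved the count of 42 widely. For complex I, which takes electrons from NADH, all 37 tested genes had positive fold changes with a median of 0.46, 16 were called higher and 1 of them in all 12 fits. That gene, the accessory subunit Ndufa1, had 141, 170 and 167 against 74.6, 88.2 and 84.0 (0.94 ± 0.14, limma adjusted p = 0.0059). Ndufv1, the subunit that binds NADH, had 194, 191 and 259 against 140.3, 136 and 138 (0.62 ± 0.14, limma adjusted p = 0.023; lost in 5 of the 11 further fits), and in 32 of the 37 genes every circulating library was above every endogenous one, as in 14.6% of all tested genes. For complexes II and III, 7 of 14 were called higher with a median of 0.53: Uqcr11 had 216, 193 and 213 against 113, 123 and 132 (0.75 ± 0.12, limma adjusted p = 0.0079), and Uqcrq had 110.1, 114 and 138 against 64.2, 69.6 and 63.5 (0.86 ± 0.14, limma adjusted p = 0.0081). Cycs, the gene of cytochrome c, which carries electrons from complex III to complex IV, had 132, 171 and 199 against 72.2, 75.4 and 94.2 (1.03 ± 0.18, limma adjusted p = 0.010).

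For complex IV, cytochrome oxidase, 8 of 11 genes were called higher with a median of 0.56, and Cox5b was called in all 12 fits with 215, 217 and 214 against 135, 128 and 144 (0.66 ± 0.11, limma adjusted p = 0.0083). Cox7a2l, a factor of supercomplex assembly, was the member with a negative fold change: 136, 100.4 and 94.8 against 118, 132 and 136. For complex V, the ATP synthase, 11 of 16 were called higher with a median of 0.51, and Atp5g3, a subunit of its membrane ring, was called in all 12 fits with 363, 398 and 415 against 211, 236 and 265 (0.72 ± 0.12, limma adjusted p = 0.0080). The catalytic subunit Atp5b had 2149, 2261 and 2700 against 1576, 1612 and 1576 (0.57 ± 0.11, limma adjusted p = 0.013), and its call was lost in 1 of the 11 further fits. These counts were lowest without endogenous replicate 1, with 2 genes of complex I, 4 of complexes II and III, 1 of complex IV and 1 of complex V. Leaving out endogenous replicate 2 or 3, circulating replicate 3 or an irradiated library gave 3 to 7 for complex I, 4 to 6 for complexes II and III, 3 to 6 for complex IV and 3 to 4 for complex V, which had 7 without circulating replicate 2. Without circulating replicate 1 the counts were 18, 8, 8 and 11. With sample weights they were 6, 6, 4 and 4. With scaling by library size alone the medians of the lists lay between 0.26 and 0.36.

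Of 13 tested genes encoded in the mitochondrion itself, mt-Nd1 was called higher, with 2361, 1812 and 2180 against 1358, 1699 and 1498 (0.48 ± 0.12, limma adjusted p = 0.036), a call that was lost in 10 of the 11 further fits. The median was 0.05 and became -0.15 with scaling by library size alone. The oxidase subunit mt-Co1 had 5833, 4387 and 4580 against 5211, 6818 and 5721, and the ATP synthase subunit mt-Atp6 had 4609, 4152 and 4282 against 3949, 5025 and 4226. Among nuclear genes that supply the organelle, 10 of 77 for the mitochondrial ribosome were called higher, against 5.33% of all tested genes. For protein import it was 6 of 27 and for the citric acid cycle 4 of 21. With sample weights the counts were 2, 2 and 1. None of the 3 lists had a member called lower, and their medians were 0.39, 0.45 and 0.34. Hspd1, the matrix chaperonin, had 646, 584 and 835 against 455, 464 and 475, a call lost in 8 of the 11 further fits. No member of these 3 lists was called in all 12 fits: without endogenous replicate 1 the ribosome and citric acid cycle lists had 0 calls, without endogenous replicate 2 the import list had 0, and without circulating replicate 1 the counts were 20, 9 and 5 for ribosome, import and cycle.

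Genes that fold, modify and degrade protein were also higher where they were called. Of 24 genes of the unfolded protein response, 9 were called higher and none lower, 5 in all 12 fits, with a median of 0.60. Hspa5, the chaperone BiP, had 987, 1269 and 2020 against 611, 564 and 622 (1.19 ± 0.21, limma adjusted p = 0.011), and its cofactor Dnajb11 had 156, 195 and 259 against 91.4, 87.8 and 99.6 (1.09 ± 0.19, limma adjusted p = 0.010). The disulfide isomerases Pdia3 and Pdia6 had 1232, 1529 and 2140 against 761, 861 and 784 (0.99 ± 0.17, limma adjusted p = 0.010), and 657, 629 and 998 against 337, 334 and 326 (1.16 ± 0.18, limma adjusted p = 0.0079). Sdf2l1, an inducible partner of BiP, had 108, 181 and 311 against 46.5, 35.0 and 48.6 (2.06 ± 0.34, limma adjusted p = 0.0083). Circulating replicate 3 was the highest library for all 5. Xbp1, the factor whose splicing signals the response, had 165, 299 and 411 against 248, 144 and 182 with overlapping groups. The count of higher members was 5 without endogenous replicate 1 or 2, and 12 at the highest.

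Of 32 genes for translocation into the endoplasmic reticulum and N-glycosylation, all had positive fold changes, 12 were called higher and the median was 0.42, but none was called in all 12 fits. Rpn1, a subunit of the oligosaccharyltransferase, had 557, 911 and 1030.1 against 402, 378 and 319 (1.14 ± 0.22, limma adjusted p = 0.015), a call lost in 2 of the 11 further fits. Of 39 proteasome genes, 18 were called higher, against 5.33% of all tested genes, and none lower. With sample weights 7 were called higher. The median was 0.45, and 38 fold changes were positive. Psmd11, a lid subunit, was called in all 12 fits, with 316, 325 and 288 against 201, 206 and 184 (0.65 ± 0.11, limma adjusted p = 0.011). Without endogenous replicate 1 or 3 the count was 1 in both lists, without circulating replicate 3 it was 2 and 4, and without circulating replicate 1 it was 17 and 27. Of 22 cytosolic tRNA synthetases, 3 were called higher; Rars, which charges arginine, had 199, 173 and 219 against 115, 115 and 106 (0.80 ± 0.14, limma adjusted p = 0.011) in all 12 fits, and it was the synthetase left without circulating replicate 3 or each endogenous library in turn.

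Glycolysis had 10 of 21 genes called higher and 1 lower, with a median of 0.41. Gapdh had 2351, 2663 and 3038 against 1724, 1850 and 1637 (0.62 ± 0.10, limma adjusted p = 0.0083) and overlaps Iffo1 on the other strand. Eno1, enolase, had 1060 in circulating replicate 1, 1231 in replicate 2 and 1562 in replicate 3, against 759, 805 and 635 (0.80 ± 0.14, limma adjusted p = 0.011), and the mutase Pgam1 had 547, 751 and 976 against 368, 329 and 355 (1.07 ± 0.18, limma adjusted p = 0.0089). These 3 were called in all 12 fits. Slc2a1, a glucose transporter, had 39.8, 42.6 and 44.8 against 38.3, 38.5 and 32.9 and was not called (0.21 ± 0.18, limma adjusted p = 0.48), and the liver-type phosphofructokinase Pfkl had 217, 188 and 199 against 279, 255 and 240.3 (-0.36 ± 0.12, limma adjusted p = 0.089). Glycolytic genes called higher numbered 3 without endogenous replicate 1, 5 without endogenous replicate 2 or 3, 6 without circulating replicate 3 and 10 without circulating replicate 1. Cholesterol genes had 1 call of 24, Fdps, and a median of -0.07; the call was lost in 7 of the 11 further fits, among them those with sample weights and without circulating replicate 3, irradiated replicate 3 or any endogenous library.

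Of 38 tested genes induced by type I interferon, 11 were called lower in circulating cells, against 3.3% of all tested genes, and 3 of these in all 12 fits. None was called higher, 36 fold changes were negative and the median was -0.66. Ifi44 had 44.3, 38.9 and 23.1 against 113, 110 and 114 (-1.68 ± 0.23, limma adjusted p = 0.0048). Ifit1, which binds foreign RNA caps, had 10.7, 8.61 and 9.03 against 44.1, 30.9 and 31.7 (-1.79 ± 0.27, limma adjusted p = 0.0063), and Oasl2, a relative of the oligoadenylate synthetases, had 86.7, 86.5 and 50.4 against 172, 154 and 166 (-1.17 ± 0.20, limma adjusted p = 0.0093). These 3 were called in all 12 fits, and in each the highest circulating library was below the lowest endogenous one. Irf9, the DNA-binding part of the interferon-activated complex, had 112, 114 and 107 against 188, 171 and 173 (-0.67 ± 0.12, limma adjusted p = 0.011), and the antiviral enzyme gene Rsad2 had 15.7, 4.61 and 9.54 against 32.95, 43.0 and 36.8 (-1.94 ± 0.36, limma adjusted p = 0.013); their calls were lost in 2 and 1 of the 11 further fits. Isg15, an ubiquitin-like modifier whose promoter is printed above, had 4.82, 4.06 and 3.14 against 11.1, 12.7 and 13.9 (-1.45 ± 0.30, limma adjusted p = 0.019), and its call was lost in 4. Ifitm1, ranked above and an interferon-induced membrane protein that stem cells also express, had 130.2, 112 and 84.4 against 348, 440 and 497 (-1.98 ± 0.23, limma adjusted p = 0.0026).

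The number of interferon genes called lower was 6, 4 and 5 without endogenous replicates 1, 2 and 3 and 19 without circulating replicate 1. With sample weights it was 9. Inflammatory signalling by NF-kB had 1 call of 19, Ccl3, lower with 15.0, 1.24 and 4.45 against 33.1, 24.6 and 22.5, and that call was lost in 10 of the 11 further fits. Nfkbia, the feedback inhibitor of the pathway, had 93.8, 142 and 65.1 against 100.4, 86.6 and 88.6. Of 16 immediate early genes, Dusp1, a phosphatase of MAP kinases, was called lower with 7.53, 10.6 and 5.39 against 21.6, 21.1 and 21.0 (-1.38 ± 0.30, limma adjusted p = 0.023), a call lost in 5 of the 11. None of 25 p53 targets was called in either direction, against 8.63% of all tested genes, and their median was -0.10. At most 2 were called higher and 2 lower when a library was left out. Ccng1, a p53 target, had 90.5, 98.2 and 91.6 against 136, 120.2 and 102, and Mdm2, its negative regulator, had 92.4, 106 and 56.8 against 77.5, 75.7 and 79.1.

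**Figure D5:**
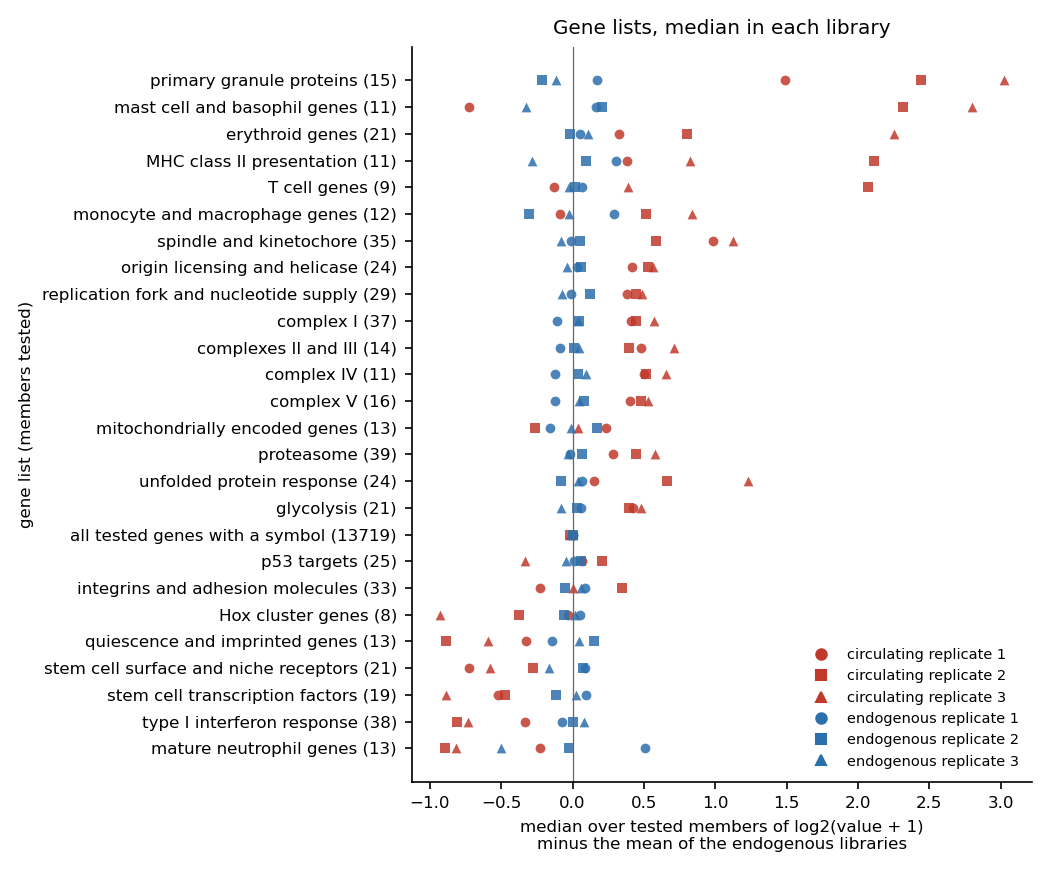
Each row is a gene list with the number of tested members in brackets, and each point is the median over its members in 1 library of log2(value + 1) minus the mean of the endogenous libraries (red circulating, blue endogenous). All 3 red points lie right of the blue points for the granule, spindle, licensing, replication and respiratory complex lists and left of them for stem cell factors, stem cell receptors, quiescence and interferon genes, while mast cell, MHC class II and T cell genes spread over the circulating replicates.

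Receptors and structures that move cells were examined because the cells are defined by having circulated. Cxcr4, the receptor that retains stem cells in the marrow, had 65.8, 57.8 and 64.8 against 47.0, 44.2 and 50.8; the groups did not overlap, but the gene was not called (0.40 ± 0.22, limma adjusted p = 0.27). Cxcr2, a receptor for CXCL1 and related chemokines, had 19.1, 29.5 and 11.8 against 25.6, 17.3 and 23.4 (-0.20 ± 0.33, limma adjusted p = 0.73). Of 23 chemokine and lipid receptors, Ccr2, Cxcr3 and Ltb4r1 were called higher and none lower, against 5.33% and 3.3% of all tested genes. Cxcr3, a receptor for interferon-induced chemokines, had 13.6, 50.4 and 21.4 against 2.63, 6.06 and 4.66 (2.29 ± 0.46, limma adjusted p = 0.017), and Ltb4r1, the receptor for leukotriene B4, had 19.1, 41.2 and 38.8 against 9.63, 3.42 and 10.2 (2.001 ± 0.40, limma adjusted p = 0.017); these calls were lost in 2 and 3 of the 11 further fits. Circulating replicate 2 was highest for all 3, as it was for the summed T and NK cell markers, and the part of other cells in this result was not tested. The fits that left out a library called 2 or 3 of these receptors higher.

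Of 33 integrins and adhesion molecules, 4 were called higher and 2 lower, against 5.33% and 3.3% of all tested genes. The median was -0.05. Itga4, the alpha chain of the integrin VLA-4, had 142, 137 and 169 against 147, 130.2 and 162, and Cd44, the hyaluronan receptor, had 226, 182 and 192 against 264, 239 and 242; neither was called. Ezr, the gene of ezrin, which ties actin to the membrane, had 284, 286 and 256 against 147, 135 and 178 (0.85 ± 0.15, limma adjusted p = 0.011) in all 12 fits and overlaps Sytl3 on the other strand. The count of higher members of the integrin list was 1 without endogenous replicate 1 or 2 and 8 without circulating replicate 1, and that of lower members was 0 without circulating replicate 3, any irradiated library or endogenous replicate 1 or 2, and 4 without circulating replicate 1.

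Of 29 antioxidant genes and NRF2 targets, 7 were called higher, against 5.33% of all tested genes, and none lower. The median was 0.24. Mt1, a metallothionein, had 39.6, 83.6 and 137 against 13.6, 7.74 and 9.85 (2.81 ± 0.42, limma adjusted p = 0.0063), and Gstm1, a glutathione transferase, had 542, 945 and 1358 against 304, 328 and 229 (1.64 ± 0.29, limma adjusted p = 0.011); both were called in all 12 fits. The count was 2 without endogenous replicate 1 or 2 and 4 without circulating replicate 3 or irradiated replicate 1. Of 31 genes in a list of Polycomb genes, histone modifiers and other chromatin proteins, 2 were called higher and 2 lower. The 2 called higher, Hmgb2 and Hmgn5, are neither Polycomb genes nor histone modifiers. The higher calls were made in all 12 fits; the count of lower ones was 0 with sample weights and without irradiated replicate 3 or any endogenous library, and 5 without circulating replicate 1. Hmgb2, a DNA-bending protein abundant in dividing cells, had 1788, 1615 and 1771 against 879, 906 and 908 (0.94 ± 0.08, limma adjusted p = 0.0011), and Hmgn5, a nucleosome-binding protein, had 158, 159 and 132 against 71.5, 90.8 and 88.2 (0.83 ± 0.15, limma adjusted p = 0.011). Of 37 DNA repair genes, 2 were called higher, against 5.33% of all tested genes, neither of them in all 12 fits. The median of 0.15 became -0.04 with scaling by library size alone. Of 13 writers and erasers of DNA methylation, Tdg and Uhrf1 were called higher. Tdg, a glycosylase of active demethylation, had 235, 277 and 271 against 130.5, 159 and 178 (0.75 ± 0.15, limma adjusted p = 0.019), and Dnmt1, the maintenance methyltransferase, had 228, 198 and 284 against 246, 260.4 and 219 and was not called. Both methylation calls were lost without endogenous replicate 1 or 2.

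Because the strain labels differ at the CD45 locus, the neighbourhood of Ptprc (chr1:138062861-138175708, GRCm38) was examined by position. Within 10 Mb on either side, 115 genes were tested; 4 were called higher (Uchl5, Cd55, Fcmr and Rab7b) and 2 lower (Kdm5b and Gm37718), a share of 5.22% against 8.63% of all tested genes, and the median log2 fold change was -0.04. Fcmr and Rab7b were called in all 12 fits. Rab7b, a GTPase of endosome transport, had 25.2, 58.1 and 58.0 against 3.36, 4.93 and 5.74 (3.01 ± 0.36, limma adjusted p = 0.0026), and Uchl5, a deubiquitinase of the proteasome, had 299, 354 and 394 against 218, 238 and 201 (0.66 ± 0.13, limma adjusted p = 0.014), a call lost in 2 of the 11 further fits. Kdm5b, a histone demethylase, had 77.9, 65.5 and 91.1 against 116, 134 and 127 (-0.69 ± 0.16, limma adjusted p = 0.029), a call lost in 7. These genes were named after their values were seen.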

How the data were processed

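RNA of LSK cells was sequenced in 9 libraries, 3 in each labelled group. Per the labels' protocols, cDNA was made with SMART-Seq v4 and libraries with Nextera XT. The submitters' processing notes list RSEM 1.3.1, limma, CASAVA and the build mm10 without saying what each did; for annotation and scaling the sources used here give nothing. The deposited values are a normalised signal: each equals an estimated count with 2 decimals, plus 0.5, times a constant of its library. The table was therefore not given to a count test, which had been planned for counts. Genes with a value of at least 1 in at least 3 libraries (13771 of 14461) were fitted in R 4.3.3 with limma 3.58.1, using log2(value + 1), an intensity trend, robust moderation and all 9 libraries, and p-values were adjusted by Benjamini-Hochberg over all of them. Simulated data with 200 changed genes were used to check the fit. Where groups differed in spread, as they do here, 10.2% of its calls were false, above the threshold. With sample weights it was 4.54%. Alternatives changed the pseudocount, filter, scaling, weights, samples and method.

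Symbols and positions came from GENCODE (GRCm38): 14405 genes matched and 56 did not. Promoter sequences are from RefSeq. Estimated counts give 14065855 to 23642590 per library of the 6; reads carry no molecular identifiers, so depth speaks to counting error only.

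The 54 gene lists and all rules were chosen with earlier results of these data known, so no list is independent evidence. Ranked genes were the 14 largest rises and falls among genes called in all 12 fits, with groups that did not overlap and a mean log2 value of at least 2; mitochondrial genes, pseudogenes, predicted loci and segments of antigen receptors were left out. From each list described, up to 5 called members with the smallest p and up to 4 uncalled members with the highest mean could be named, together with the gate genes Kit, Ly6a, Flt3, Cd34 and Ptprc and the receptors Cxcr2 and Cxcr4. Kif11 and Isg15 were added for their printed promoters. A few genes that met these rules are left out of the text. Libraries of different groups share replicate numbers, but the labels do not say that a number marks an animal, batch or day, so no pairing was used. Same-numbered circulating and irradiated libraries also share an unexplained code in their titles. All 9 libraries entered the fit as independent.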

Additional observations from a re-analysis of the deposited data

How the results depend on the processing

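The 1189 calls (734 higher, 455 lower) stayed within 1.5 times under other pseudocounts, other filters, upper-quartile scaling (1071) and fits without robust moderation. Scaling by library size alone gave 1152 calls, 336 higher and 816 lower. Sample weights gave 494 (340 higher, 154 lower), voom on estimated counts 834 (571 higher, 263 lower) and a fit of the 6 libraries alone 239 (159 higher, 80 lower). Leaving out each library in turn gave 257 to 2224 calls, 183 to 1197 higher and 74 to 1027 lower. Fits without circulating replicate 1 called the most and fits without endogenous replicate 1 the fewest; the cause was not tested. A fit with the replicate number as a replicate block gave 1147 calls (716 higher, 431 lower). The correlations of the deviations of same-numbered circulating and endogenous libraries were -0.009, 0.006 and 0.064, which gave no sign of pairing between these groups. Same-numbered circulating and irradiated libraries, whose titles share a code, were not compared in this way. Of 1128 genes in the ranking and the lists, 293 of them called, no called gene changed sign under any alternative. Alternatives that change only the filter, the moderation, the block or the irradiated libraries cannot alter a fold change. The others were applied to genes already called, so the lack of sign changes is a weak check. The largest losses of calls among the 293 were 189 without endogenous replicate 1 and 187 in the fit of the 6 libraries alone. With 3 libraries a group, an exact permutation test of a single gene cannot give a p below 0.1, so each p-value rests on a spread shared across genes. Values under 3 counts were at most 0.263 and cannot be told from 0.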

Other observations

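Some further gene groups are given beside the shares of all tested genes, 5.33% called higher and 3.3% called lower. Of 25 lysosomal genes, 4 were called higher and 1 lower, with a median log2 fold change of 0.27, and none was called in all 12 fits; the count of higher members was 0 without endogenous replicate 2 and 8 without circulating replicate 1. Ctsz, a lysosomal carboxypeptidase, had values of 259, 366 and 526 in circulating and 182, 141 and 165 in endogenous libraries (1.18 ± 0.22 SE, limma adjusted p = 0.013), and its call was lost in 1 of the 11 further fits. Hexa, a subunit of the enzyme that degrades gangliosides, had 177, 287 and 354 against 114, 126 and 105, while Ctsd, the gene of cathepsin D, had 453, 653 and 509 against 513, 493 and 445 and was not called. Of 22 genes for serine, glycine and one-carbon metabolism, Psat1 and Mthfd2 were called higher, and the groups did not overlap for Psat1, with 166, 182 and 220 against 127, 134 and 111. Their calls were lost in 10 and 9 of the 11 further fits: no gene of this list was called with sample weights or without circulating replicate 2 or 3, any irradiated library or endogenous replicate 1 or 2, 1 was without endogenous replicate 3, and 7 were without circulating replicate 1. Of 14 Bcl2 family genes, Bid, which links death receptors to mitochondria, was called higher with 140.3, 146 and 218 against 89.8, 108 and 92.1 (0.77 ± 0.18, limma adjusted p = 0.027), and Mcl1, a survival factor of stem cells, had 47.3, 57.2 and 41.6 against 28.6, 24.6 and 51.9. The call of Bid was lost in 5 of the 11 further fits.

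Plasma cell genes had no call among 8 and a spread that followed single libraries. Jchain, which joins IgM and IgA chains, had 839, 1334 and 1313 against 472, 231 and 148 without overlap between the groups (2.16 ± 1.05, limma adjusted p = 0.25). Iglc1, an immunoglobulin light chain, had 81.7, 18.4 and 2892 against 17.8, 3.46 and 119. Of 6 endothelial and stromal genes, Bgn and Pecam1 were called lower; Pecam1, an adhesion protein that blood progenitors also express, had 74.4, 82.4 and 77.0 against 103, 109 and 121 (-0.50 ± 0.13, limma adjusted p = 0.043), and its call was lost in each of the 11 further fits.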
